A study of Mus musculus with 6 samples.

Results

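The 35 genes described here are a chosen set of amino acid response genes of the transcription factor ATF4 and of tRNA synthetase genes. They are 18 response genes, of which 10 encode transcription factors and stress effectors and 8 encode enzymes of amino acid and one-carbon metabolism, and 17 genes of cytosolic aminoacyl-tRNA synthetases. The genes were chosen by name as known ATF4 targets and synthetases, under their older symbols. The rule uses no measured value, but it was set with earlier results of these data known. All 35 were found among the 18512 entries of the count table, and all 35 were among the 13353 entries whose mean normalized count over the 6 libraries was at least 20, the minimum for testing.

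RNA came from NMuMG cells, an epithelial line of the mouse mammary gland that takes on mesenchymal features under TGF-β. Of the 3 groups, DMSO received the solvent alone as control, and TGF-β received the growth factor at 5 ng/ml. TGF-β+2APB received the same dose together with 50 uM 2APB (2-aminoethoxydiphenyl borate). The study uses 2APB as an inhibitor of store-operated calcium entry, and also reports that it raised calcium influx through the channel ORAI3. Each group had 2 libraries. A time of 24 h stands in the sources both for the whole treatment and for 2APB ahead of TGF-β, so the order of the additions could not be settled. None of the 3 groups received 2APB alone, so an effect of 2APB by itself cannot be told apart from one that needs TGF-β. Setting TGF-β beside DMSO asks how the growth factor changed these genes, and setting both treated groups side by side asks what 2APB added.

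When amino acids run short or unfolded proteins accumulate, a kinase phosphorylates the initiation factor eIF2α, general translation slows, and the ATF4 mRNA is translated better. ATF4 pairs with C/EBP proteins, binds CARE sequences (C/EBP-ATF response elements) and turns on genes for amino acid synthesis, amino acid uptake and the charging of tRNAs, along with Ddit3, Trib3 and Chac1, which act in the later stress response. Much of this control is translational, so the Atf4 mRNA is no measure of ATF4 protein, which was not measured here. Aminoacyl-tRNA synthetases join each amino acid to its tRNA and supply the ribosome in every cell.

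The CARE motif was looked for in RefSeq promoters of the mouse genome GRCm38.p6, each covering 250 bases before to 50 bases after an annotated start site. The motif was TGATGNAA on either strand, where N is any base. Promoters were available for 28 of the 35 genes, and 11 of these 28 (39.3%) held a match, against 1219 of 27025 genes (4.51%) with such promoters. The form TGATGCAA, which lies within the motif, was held by 8 of the 28 (28.6%) and by 279 of the 27025 genes (1.03%). Since the genes were chosen as known ATF4 targets and synthetases, these shares were not tested, and a match is not a measurement of binding. The sequences below are those of the matching genes whose changes are described in detail. They are written 5′ to 3′ on the strand of the gene with the motif in capitals, which reads as its reverse complement where the match lies on the other strand. Stretches of 60 bases touch no annotated exon, and stretches of 30 bases are given where a longer one would.
Nupr1, chr7:126625562-126625591, minus strand: aaagggccagaTTGCATCAgacagggcttg
Trib3, chr2:152344028-152344057, minus strand: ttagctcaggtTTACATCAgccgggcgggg
Chac1, chr2:119351023-119351082, plus strand: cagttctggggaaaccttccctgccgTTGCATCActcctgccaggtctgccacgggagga
Asns, chr6:7693214-7693243, minus strand: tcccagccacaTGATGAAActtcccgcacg
Pycr1, chr11:120643818-120643877, minus strand: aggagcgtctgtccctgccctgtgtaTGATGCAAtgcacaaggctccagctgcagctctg
Gars, chr6:55037945-55038004, plus strand: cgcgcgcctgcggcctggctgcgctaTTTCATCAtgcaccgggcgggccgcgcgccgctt
Tars, chr15:11399655-11399684, minus strand: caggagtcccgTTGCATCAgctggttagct
Yars, chr4:129189895-129189924, plus strand: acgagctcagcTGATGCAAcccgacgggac

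In the GENCODE M21 annotation of GRCm38, the matches of Chac1, Pycr1, Gars, Trib3 and Tars lay outside exons, and those of Nupr1, Asns and Yars lay in exons of their own gene. Vldlr, Aars and Iars also held a match, and Aars held 2. No match was found in the windows of Atf4, Atf5, Ddit3, Ddit4, Sesn2 or Psat1, which says only that these letters were not in these windows. Cars, Hars, Lars, Nars, Rars, Vars and Wars had no promoter entry.

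**Figure D1:**
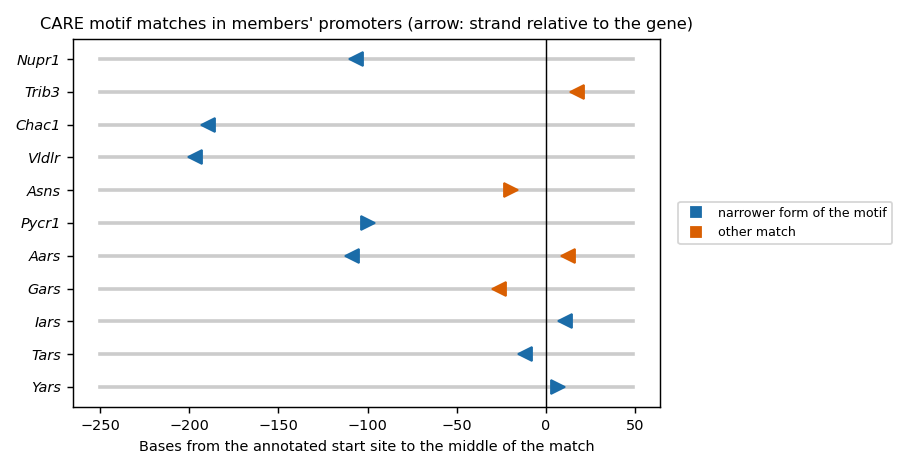
Position of each CARE match in the promoters of the 11 matching genes, in bases from the annotated start site (0) to the middle of the match. Grey lines are the windows searched, arrowheads point along the strand of the match relative to the gene, and blue marks the narrower form of the motif, held by 8 genes. Matches lay on both sides of the start site, and Aars is the gene with 2.

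Between 71840570 and 79473182 counts were assigned to genes per library, and the biological coefficient of variation between replicates over all tested genes was 17.4%. Every deposited value was even. The library totals exceed the average number of reads per sample given in the study's methods, and the reason is not known. A gene was called changed at an edgeR FDR of 0.05 or less over all 13353 tested genes, and changes are log2 fold changes with their standard errors (SE). Values per library are counts normalized by TMM to the mean library, in the order replicate 1 and replicate 2. In these bulk samples, fewer cells that express a gene and less RNA per cell cannot be told apart.

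The TGF-β replicates were farther apart in these genes than those of the other groups. The higher replicate was a median of 1.15 times the lower over the 35 genes in TGF-β, 1.04 times in DMSO and 1.05 times in TGF-β+2APB. In 27 of the 35, TGF-β replicate 2 was the lower one. The labelled cell type was checked against markers. Krt8 and Krt18 were abundant in all libraries, and the summed level of the 5 epithelial markers ran from 489403 to 1380660, highest in TGF-β+2APB and carried by these keratins. Cdh1, the gene of E-cadherin, fell by 0.78 under TGF-β (SE 0.13, FDR 0.0055) and by 1.26 under TGF-β+2APB (SE 0.13, FDR 0.000682) on the log2 scale. Epcam, at 128 and 163 in DMSO and 50.6 to 86.8 in the treated libraries, fell by 1.42 (SE 0.30, FDR 0.0141) and 0.97 (SE 0.30, FDR 0.038). The 4 hepatocyte markers (Alb, Ttr, Apoa1, Fga) summed to 61322 and 54820 normalized counts in the DMSO libraries and to 27.6 to 249 in the other 4, so they moved with every comparison against DMSO. The summed immune markers ran from 247 to 629 in 5 libraries and reached 2364 in TGF-β+2APB replicate 2. The 4 fibroblast markers found summed to 132 and 151 in DMSO and to 1718 to 2439 in the treated libraries, mostly Col1a1, while Col1a2 was at 0 in both DMSO libraries. The 4 endothelial markers summed to 9.83 to 49.3, with Kdr at 0 in 5 of 6 libraries. The part of these other signals in the changes described here was not tested.

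In TGF-β against DMSO, 11 of the 18 response genes were called, 6 higher and 5 lower, where 41.5% of all tested genes were called, 21.8% higher and 19.7% lower. The genes higher under TGF-β were Nupr1, Ddit4, Asns, Psph, Shmt2 and Mthfd2, and those lower were Atf5, Ddit3, Sesn2, Vldlr and Psat1. The median log2 fold change of the 18 was 0.23, against -0.01 over all tested genes. Its factors and effectors had a median of -0.35 with 2 genes called higher and 4 lower. The enzymes had a median of 0.34 with 4 called higher and 1 lower. Without DMSO replicate 1 the count of response genes was 6 and without DMSO replicate 2 it was 7, where Vldlr, Asns, Psph and Mthfd2 were no longer called.

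In TGF-β+2APB against DMSO, 14 of the 18 response genes were called, 10 higher and 4 lower, beside 52.8% of all tested genes, 25.6% higher and 27.2% lower. Genes higher in this comparison were Atf4, Nupr1, Trib3, Ddit4, Chac1, Asns, Psph, Shmt2, Aldh18a1 and Pycr1. Those lower were Ddit3, Sesn2, Vldlr and Psat1. Both comparisons share the DMSO libraries, so their calls are not independent. The median of the 18 was 0.31, against -0.0033 over all tested genes, and leaving out single libraries gave between 10 and 16 called genes.

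Of the 18 response genes, 8 differed between TGF-β+2APB and TGF-β, where 17.5% of all tested genes were called, 6.58% higher and 10.9% lower. Higher with 2APB were Atf5, Nupr1, Trib3, Ddit4, Asns, Aldh18a1 and Pycr1, and Psat1 was lower. This count was 2 without DMSO replicate 1, DMSO replicate 2 or TGF-β+2APB replicate 1, and 5 without TGF-β+2APB replicate 2. Without the filter on low counts it was 5, with Asns, Aldh18a1 and Pycr1 no longer called, and in a fit of only the 4 libraries compared it was 2. The DMSO libraries enter this comparison only through the shared estimate of the spread, the scaling and the filter. Among these 8 genes, Trib3 and Psat1 alone were called in each of the 18 alternatives tried.

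**Figure D2:**
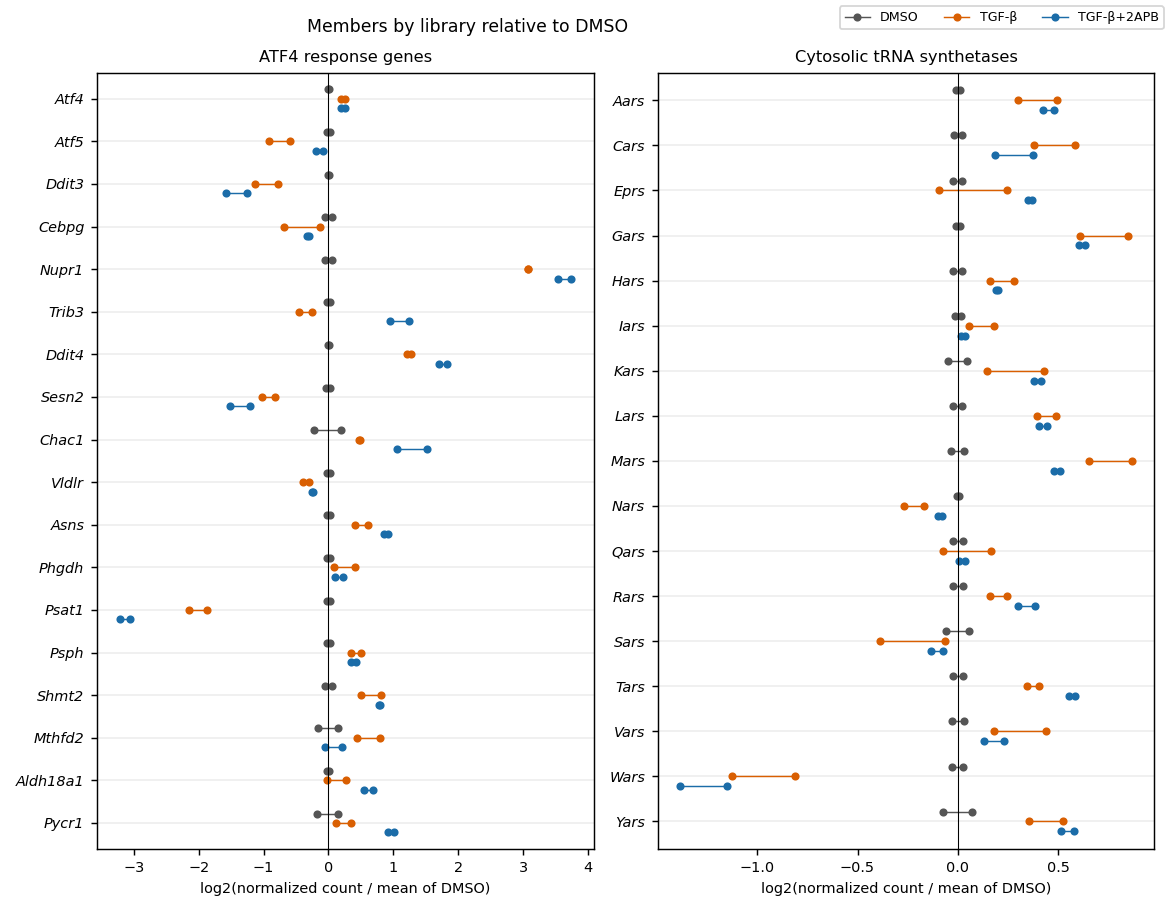
Normalized count of each of the 35 genes in each library, as log2 of its ratio to the mean of the 2 DMSO libraries. Points are libraries, lines join the 2 libraries of a group, and the 2 panels have different scales. Nupr1 and Psat1 lie farthest from DMSO among the response genes, and Wars is the synthetase gene farthest below DMSO.

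**Figure D3:**
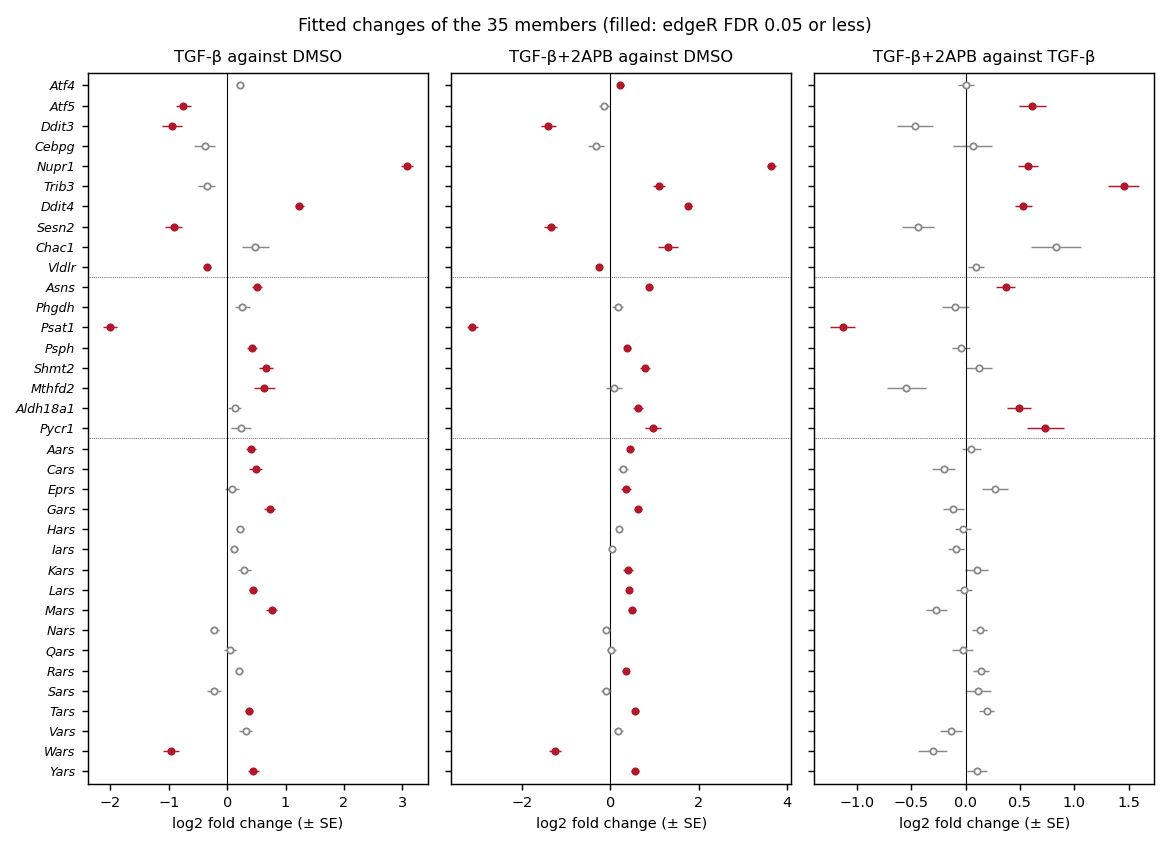
Fitted log2 fold change (x axis) of each of the 35 genes in the 3 comparisons, with bars of ± SE. Filled red points were called at an FDR of 0.05 or less and open grey points were not, and the x axes differ between panels. Called synthetase genes appear in both comparisons with DMSO, and 0 of 17 in the direct comparison of the treated groups.

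Among the transcription factors, Atf4 itself moved little. Its normalized counts were 8102 and 8210 in DMSO, 9780 and 9284 in TGF-β, and 9778 and 9309 in TGF-β+2APB. Both treated groups lay above DMSO in every library and overlapped each other. The log2 fold change was 0.22 (SE 0.07, FDR 0.0513) in TGF-β against DMSO and 0.23 (SE 0.07, FDR 0.0411) in TGF-β+2APB against DMSO, on either side of the threshold. The second call was lost without either DMSO library or either TGF-β+2APB library, with FDR values up to 0.296, and also under library size scaling and without the filter. DESeq2 called Atf4 in TGF-β against DMSO. Between the treated groups the log2 difference was 0.00 (SE 0.07, FDR 0.992).

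Nupr1, which encodes a small nuclear stress protein, had the largest rise of the 35 genes. Normalized counts of 847 and 783 in DMSO stood against 6849 and 6902 in TGF-β and 10899 and 9524 in TGF-β+2APB. No library of one group reached into another. The rise was 8.43-fold under TGF-β (log2 3.08, SE 0.10, FDR 4.26e-05) and 12.5-fold under TGF-β+2APB (log2 3.65, SE 0.10, FDR 1.66e-05), and both calls held with each library left out. Between the treated groups Nupr1 rose a further 1.49-fold (log2 0.57, SE 0.09, FDR 0.0149), and this call was lost without DMSO replicate 1, DMSO replicate 2 or TGF-β+2APB replicate 1, with FDR values up to 0.0951. The gene lies at chr7:126623249-126630861 on the minus strand.

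Ddit3, the gene of CHOP, a factor that turns prolonged ER stress toward cell death, went the other way. DMSO had 1647 and 1618 normalized counts, TGF-β had 956 and 741, and TGF-β+2APB had 546 and 681. Both treated groups lay below DMSO. Ddit3 fell by 0.94 on the log2 scale under TGF-β (SE 0.17, FDR 0.00681) and by 1.41 under TGF-β+2APB (SE 0.17, FDR 0.00112). The treated groups did not overlap each other, but their log2 difference of -0.47 (SE 0.17) was not called, with an FDR of 0.113. Of the exonic bases of Ddit3, 4.73% were shared with other genes, Mars on the opposite strand among them, and the strand setting of the counting is not given in the sources used here.

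Atf5, a related factor that is also under translational control, was the response gene that fell under TGF-β and was called higher again with 2APB. Its normalized counts were 1877 and 1934 in DMSO, 1262 and 1006 in TGF-β, and 1675 and 1793 in TGF-β+2APB. The 3 groups did not overlap, with TGF-β lowest. Atf5 fell by 0.75 on the log2 scale under TGF-β (SE 0.12, FDR 0.00568), and TGF-β+2APB lay 0.61 above TGF-β (SE 0.12, FDR 0.0262). Against DMSO, TGF-β+2APB differed by -0.14 (SE 0.12, FDR 0.396). The call between the treated groups was lost without DMSO replicate 1, DMSO replicate 2, TGF-β+2APB replicate 1 or TGF-β+2APB replicate 2, with FDR values up to 0.136. Cebpg, a C/EBP partner of ATF4, had 5773 and 6248 in DMSO, 3730 and 5476 in TGF-β, and 4856 and 4777 in TGF-β+2APB, and was called in none of the 3 comparisons (FDR 0.141, 0.187 and 0.827). The TGF-β replicates of Cebpg were the farthest apart of the 35 genes in that group, at a ratio of 1.47.

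Trib3, a pseudokinase that restrains ATF4 and AKT, was called higher where 2APB had been added. Its normalized counts were 635 and 609 in DMSO, 520 and 454 in TGF-β, and 1475 and 1198 in TGF-β+2APB. TGF-β+2APB lay above every other library, and TGF-β lay below DMSO without being called (log2 -0.35, SE 0.14, FDR 0.095). With 2APB the level was 2.74 times that of TGF-β (log2 1.45, SE 0.14, FDR 0.00469) and 2.15 times that of DMSO (log2 1.10, SE 0.14, FDR 0.00144). Both calls held with each library left out.

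Chac1 encodes an enzyme that breaks down glutathione and is a late target of the ATF4 arm. Normalized counts of 155 and 207 in DMSO stood against 253 and 251 in TGF-β and 521 and 377 in TGF-β+2APB, in 3 groups that did not overlap. Chac1 was 2.48-fold higher in TGF-β+2APB than in DMSO (log2 1.31, SE 0.23, FDR 0.00533). Its replicates were the farthest apart of the 35 genes in both DMSO and TGF-β+2APB, at ratios of 1.33 and 1.38. The difference between the treated groups was 0.83 (SE 0.23, FDR 0.0617), not called by edgeR, called by DESeq2, and called by edgeR without TGF-β+2APB replicate 2.

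Ddit4 and Sesn2 both encode inhibitors of the growth kinase complex mTORC1, and they changed in opposite directions. Ddit4 had 4391 and 4363 normalized counts in DMSO, 10546 and 10114 in TGF-β, and 15557 and 14290 in TGF-β+2APB. Sesn2 had 981 and 940 in DMSO, 543 and 473 in TGF-β, and 335 and 416 in TGF-β+2APB. For both genes the 3 groups did not overlap, in rising order for Ddit4 and in falling order for Sesn2. Ddit4 was 2.36-fold higher under TGF-β (FDR 0.000204) and 3.41-fold higher under TGF-β+2APB (FDR 4.8e-05) than in DMSO, and 1.44-fold higher with 2APB than without (FDR 0.0109). That last call was lost without DMSO replicate 1, DMSO replicate 2 or TGF-β+2APB replicate 1, with FDR values up to 0.103. Sesn2 fell by 0.92 on the log2 scale under TGF-β (SE 0.15, FDR 0.00503) and by 1.35 under TGF-β+2APB (SE 0.15, FDR 0.000854), and its difference between the treated groups was -0.44 (SE 0.15, FDR 0.102). Vldlr, a lipoprotein receptor that ATF4 induces, had 11042 and 11456 in DMSO, 8590 and 9095 in TGF-β, and 9392 and 9498 in TGF-β+2APB. Its log2 differences from DMSO were -0.35 (FDR 0.0117) and -0.25 (FDR 0.0273), and both calls were lost without either DMSO library or either TGF-β+2APB library, with FDR values up to 0.121 and 0.202.

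**Figure D4:**
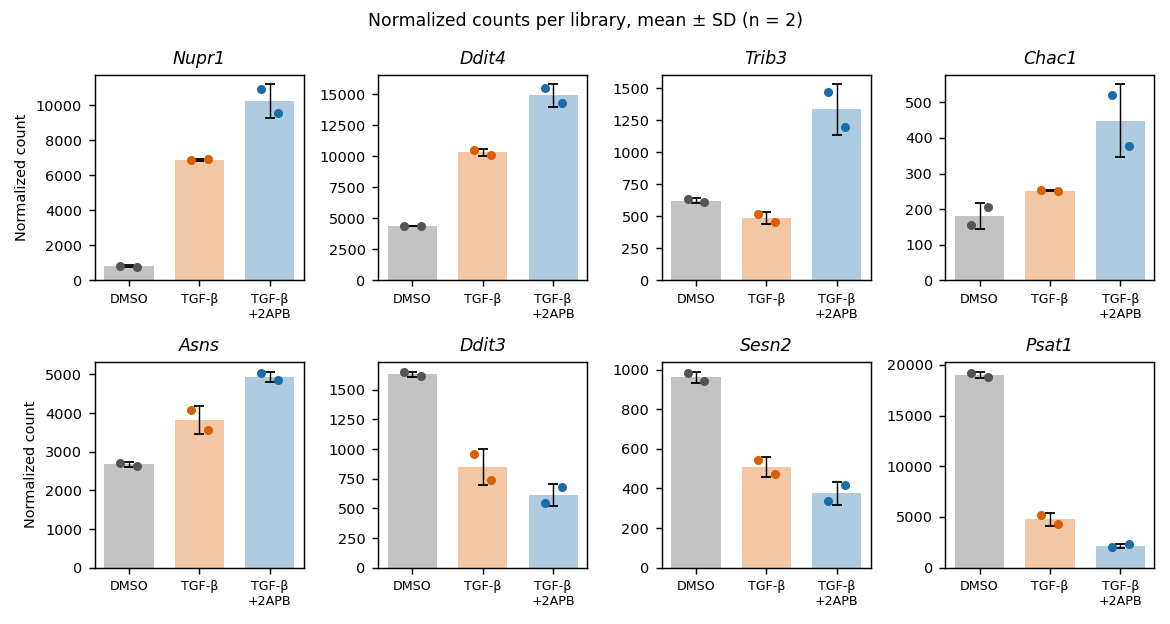
Normalized counts of 8 response genes by group (y axes from 0, with a scale for each gene). Points are libraries, bars the mean and error bars the SD of 2 libraries. Nupr1, Ddit4, Chac1 and Asns stand in the order DMSO, TGF-β, TGF-β+2APB, Trib3 is highest in TGF-β+2APB and lowest in TGF-β, and Ddit3, Sesn2 and Psat1 stand in the reverse order.

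Phgdh, Psat1 and Psph encode the enzymes that make serine from a glycolytic intermediate in 3 consecutive steps, and the gene of the middle step fell in both treated groups. Psat1 had 19230 and 18755 normalized counts in DMSO, 5201 and 4302 in TGF-β, and 2037 and 2289 in TGF-β+2APB, without overlap between groups. It was 4-fold lower under TGF-β (SE 0.12 on the log2 scale, FDR 0.000175) and 8.78-fold lower under TGF-β+2APB (log2 -3.13, SE 0.12, FDR 3.8e-05) than in DMSO, the largest fall of the 35 genes. Adding 2APB to TGF-β went with a further fall: Psat1 fell by 1.14 on the log2 scale (SE 0.12, FDR 0.00516), and all these calls held with each library left out.

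Phgdh, the first enzyme of that pathway, had 14102 and 14596 normalized counts in DMSO, 19142 and 15219 in TGF-β, and 15350 and 16814 in TGF-β+2APB. The TGF-β replicates enclosed both of the other treated libraries, and no comparison was called (FDR 0.146, 0.308 and 0.631). Psph, the last enzyme, had 1802 and 1754 in DMSO, 2515 and 2260 in TGF-β, and 2263 and 2379 in TGF-β+2APB. Psph was higher than in DMSO by 0.42 (SE 0.08, FDR 0.0106) and 0.38 (SE 0.08, FDR 0.0114). The first of these calls was lost without either DMSO library and the second also without either TGF-β+2APB library, with FDR values up to 0.0948 and 0.0953. With Cct6a, Psph shared 10.4% of its exonic bases.

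Shmt2 and Mthfd2 carry the mitochondrial one-carbon pathway that uses serine. Shmt2 had 3774 and 4095 normalized counts in DMSO, 6890 and 5570 in TGF-β, and 6830 and 6734 in TGF-β+2APB. It was higher by 0.66 (SE 0.12, FDR 0.00707) and 0.79 (SE 0.12, FDR 0.00273) in the treated groups, and the first call was lost without DMSO replicate 1 at an FDR of 0.069. Mthfd2 had 613 and 752 in DMSO, 1188 and 928 in TGF-β, and 657 and 789 in TGF-β+2APB. The TGF-β libraries lay above all others, and the rise under TGF-β was 0.63 (SE 0.18, FDR 0.0368). That call was lost without DMSO replicate 1, DMSO replicate 2 or TGF-β replicate 1, with FDR values up to 0.202. TGF-β+2APB overlapped DMSO (log2 0.08, SE 0.18, FDR 0.724), and its difference from TGF-β was -0.55 (SE 0.18, FDR 0.0952).

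Asns makes asparagine and is the best known amino acid response gene. Its normalized counts were 2720 and 2632 in DMSO, 4081 and 3569 in TGF-β, and 5035 and 4848 in TGF-β+2APB, in 3 groups that did not overlap. Asns was 1.43-fold higher under TGF-β (FDR 0.00593), 1.85-fold higher under TGF-β+2APB (FDR 0.000568) and 1.29-fold higher with 2APB than with TGF-β alone (FDR 0.0392). The first call was lost without either DMSO library (FDR up to 0.0639), and the last without either DMSO library or either TGF-β+2APB library (FDR up to 0.276).

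Aldh18a1 and Pycr1, which make proline from glutamate, were higher where 2APB had been added. Aldh18a1 had 2549 and 2605 normalized counts in DMSO, 3101 and 2534 in TGF-β, and 3775 and 4147 in TGF-β+2APB. Pycr1 had 254 and 318 in DMSO, 362 and 309 in TGF-β, and 540 and 576 in TGF-β+2APB. For both genes TGF-β overlapped DMSO and TGF-β+2APB lay above all other libraries. With 2APB they were 1.54-fold (FDR 0.00594) and 1.95-fold (FDR 0.00524) higher than in DMSO, and 1.41-fold (FDR 0.038) and 1.66-fold (FDR 0.0384) higher than in TGF-β. The call of Aldh18a1 against DMSO was lost without DMSO replicate 1 at an FDR of 0.0507. Against TGF-β, both calls were lost without either DMSO library or either TGF-β+2APB library, and that of Pycr1 also without TGF-β replicate 2, with FDR values up to 0.202 and 0.136.

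Of the 17 cytosolic synthetase genes, 8 were called in TGF-β against DMSO, 7 higher and 1 lower, a share close to the 41.5% of all tested genes, though 21.8% of all tested genes were called higher. Aars, Cars, Gars, Lars, Mars, Tars and Yars were higher, and Wars was lower. The median of the 17 was 0.30, and 14 of them had a positive log2 fold change. The count moved with single libraries, to 3 without either DMSO library and to 14 without TGF-β replicate 2, and DESeq2 called 13.

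Of the 17 synthetase genes, 10 were called in TGF-β+2APB against DMSO, 9 higher and 1 lower, where 52.8% of all tested genes were called and 25.6% called higher. Aars, Eprs, Gars, Kars, Lars, Mars, Rars, Tars and Yars were higher and Wars was again lower, with the same DMSO libraries in both comparisons. The median was 0.34. The count was 6 without DMSO replicate 1 and 4 without DMSO replicate 2.

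Between TGF-β+2APB and TGF-β, edgeR called 0 of the 17 synthetase genes, where 17.5% of all tested genes were called, with 2 at an unadjusted p under 0.05, and DESeq2 called 1, Tars. The log2 differences ran from -0.31 to 0.27 with a median of -0.01. Without TGF-β replicate 1 the count was 2, both higher, and without TGF-β replicate 2 it was 7, 3 higher and 4 lower. The count of 0 does not show that the 2 treated groups were alike.

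Gars and Mars, for glycine and methionine, were the synthetase genes with the largest rises under TGF-β. Gars had 10745 and 10582 normalized counts in DMSO, 19181 and 16267 in TGF-β, and 16541 and 16204 in TGF-β+2APB. Mars had 5014 and 4801 in DMSO, 8955 and 7722 in TGF-β, and 6838 and 6990 in TGF-β+2APB. Treated libraries of both genes lay above DMSO without overlap. Under TGF-β, Gars was 1.66-fold higher (log2 0.73, SE 0.09, FDR 0.0024) and Mars 1.70-fold higher (log2 0.76, SE 0.09, FDR 0.00195), and both calls held with each library left out. With 2APB the rises over DMSO were 1.54-fold (FDR 0.00296) and 1.41-fold (FDR 0.00664), and that of Mars was lost without DMSO replicate 2 at an FDR of 0.0661.

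Wars, the tryptophan synthetase gene and one that interferon also induces, was the synthetase gene that edgeR called lower against DMSO in both treated groups. It had 13020 and 12537 normalized counts in DMSO, 7287 and 5862 in TGF-β, and 4896 and 5745 in TGF-β+2APB. Both treated groups lay below DMSO and did not overlap each other. Wars fell by 0.96 on the log2 scale under TGF-β (SE 0.13, FDR 0.00313) and by 1.26 under TGF-β+2APB (SE 0.14, FDR 0.000765). Both calls held with each library left out. The difference between the treated groups was -0.31 (SE 0.13, FDR 0.175).

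Tars and Yars, for threonine and tyrosine, had their highest means in TGF-β+2APB, as had Aars, Eprs, Kars and Rars. Between the treated groups, edgeR called neither Tars (log2 0.19, SE 0.07, FDR 0.113) nor Yars (log2 0.11, SE 0.09, FDR 0.475). Tars had 5527 and 5710 normalized counts in DMSO, 7135 and 7427 in TGF-β, and 8422 and 8245 in TGF-β+2APB, in 3 groups that did not overlap. Its rise over DMSO was 1.30-fold under TGF-β (FDR 0.0083) and 1.48-fold under TGF-β+2APB (FDR 0.00125). Yars had 2315 and 2095 in DMSO, 3177 and 2822 in TGF-β, and 3300 and 3155 in TGF-β+2APB, and the treated groups overlapped. Yars was 1.36-fold (FDR 0.0131) and 1.46-fold (FDR 0.00444) higher than in DMSO. For both genes the call under TGF-β was lost without either DMSO library, with FDR values up to 0.104 and 0.111.

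Aars and Lars, for alanine and leucine, had nearly the same rise in both treated groups. Aars was higher by 0.40 (SE 0.09, FDR 0.0142) and 0.45 (SE 0.09, FDR 0.00684), and Lars by 0.44 (SE 0.07, FDR 0.00509) and 0.43 (SE 0.07, FDR 0.00412). Cars, for cysteine, was called under TGF-β (log2 0.49, SE 0.11, FDR 0.0149), with 0.28 (SE 0.11, FDR 0.068) under TGF-β+2APB. These calls under TGF-β were all lost without either DMSO library, with FDR values up to 0.112. With 2APB, the call of Lars against DMSO was lost without DMSO replicate 2 (FDR 0.0572), and that of Aars without either DMSO library or TGF-β+2APB replicate 2 (FDR up to 0.0653). Of the exonic bases of Aars, 15.1% were shared with other genes, Exosc6 among them.

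Eprs (glutamate and proline), Kars (lysine) and Rars (arginine) were called by edgeR in TGF-β+2APB against DMSO, at 0.36 (SE 0.12, FDR 0.0467), 0.40 (SE 0.11, FDR 0.0262) and 0.34 (SE 0.07, FDR 0.0109). Their differences from DMSO under TGF-β were 0.09 (FDR 0.591), 0.30 (FDR 0.0786) and 0.20 (FDR 0.0749), of which DESeq2 called Kars and Rars, and their differences between the treated groups were not called (FDR 0.172, 0.567 and 0.25). Eprs lost its call under library size scaling and without the filter, and both Eprs and Kars lost theirs without either DMSO library or either TGF-β+2APB library (FDR up to 0.204 and 0.162), and Rars without either DMSO library or TGF-β+2APB replicate 1 (FDR up to 0.11).

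Hars, Iars, Nars, Qars, Sars and Vars, for histidine, isoleucine, asparagine, glutamine, serine and valine, were called in none of the 3 comparisons. Their log2 fold changes under TGF-β were 0.22, 0.12, -0.22, 0.05, -0.22 and 0.31, and under TGF-β+2APB 0.19, 0.03, -0.09, 0.02, -0.10 and 0.18. Hars (FDR 0.0625), Nars (FDR 0.0509) and Vars (FDR 0.0571) came close to the threshold under TGF-β and were called there by DESeq2. Hars shares 7.97% of its exonic bases with its neighbour Hars2 on the opposite strand. How reads from these bases were counted is not given in the sources used here.

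Among 17 listed nuclear genes of mitochondrial synthetases, calls went in both directions. Their counts lay below the 41.5% and 52.8% of all tested genes called against DMSO. In TGF-β against DMSO 6 were called, 5 higher and 1 lower, with Aars2 (log2 0.86, SE 0.08) and Yars2 (0.45, SE 0.08) the largest rises and Cars2 lower by 0.33 (SE 0.10). With 2APB, 7 were called against DMSO, 3 higher and 4 lower, with Aars2 at 0.90, Yars2 at 0.50 and Hars2 at 0.21, and Cars2, Rars2 and Vars2 at -0.60, -0.52 and -0.49. The medians over the 17 mitochondrial genes were 0.14, -0.02 and -0.13 in the 3 comparisons, beside 0.30, 0.34 and -0.01 over the 17 cytosolic genes. The mitochondrial list holds no separate gene for glycine or lysine, so the 2 sets do not fully divide the synthetases by compartment. The difference between the 2 sets was not tested.

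**Figure D5:**
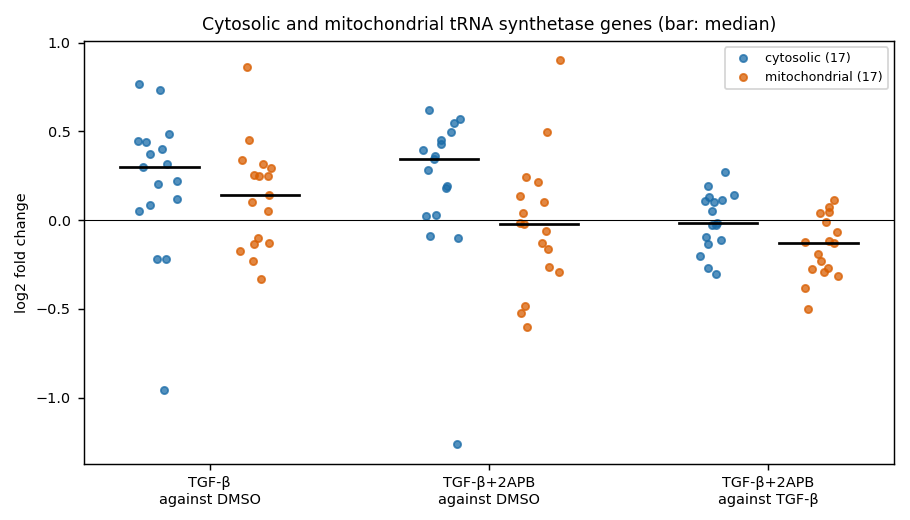
Fitted log2 fold change (y axis) of the 17 cytosolic (blue) and 17 mitochondrial (orange) synthetase genes in the 3 comparisons. Each point is a gene, shifted sideways at random for visibility, and black bars are medians. The cytosolic medians lie at 0.30 and 0.34 in the comparisons with DMSO, and the lowest cytosolic point in each of these is Wars.

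The other cytosolic synthetase genes and the scaffold of the multi-synthetase complex, 7 genes in all, had 4 called in each comparison with DMSO, 3 higher and 1 lower, beside 41.5% and 52.8% of all tested genes. The scaffold genes Eef1e1 (0.68, SE 0.07) and Aimp2 (0.48, SE 0.10) and the phenylalanine synthetase gene Farsa (0.36, SE 0.09) were higher under TGF-β, and Tarsl2, a relative of Tars, was lower by 0.51 (SE 0.09). With 2APB they stood at 0.86, 0.52, 0.30 and -0.39 against DMSO. The lowest FDR of this set between the treated groups was 0.108.

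Upstream of ATF4, none of the 4 eIF2α kinase genes was called. In TGF-β against DMSO, Eif2ak1 (HRI, the heme sensor) stood at -0.04 (FDR 0.78), Eif2ak2 (PKR, the double-stranded RNA sensor) at -0.27 (FDR 0.462), Eif2ak3 (PERK, the ER stress sensor) at 0.00 (FDR 0.981) and Eif2ak4 (GCN2, the amino acid sensor) at 0.04 (FDR 0.644). The TGF-β libraries of Eif2ak2 were far apart, at 3105 and 5647 normalized counts, with 5234 and 5314 in DMSO (SE 0.27). For TGF-β+2APB against DMSO the nearest to the threshold was Eif2ak3, at 0.26 (SE 0.09, FDR 0.0556). Ppp1r15a, the phosphatase subunit that ATF4 signalling induces to reverse the eIF2α mark, had 1861 and 1688 normalized counts in DMSO, 1938 and 1529 in TGF-β, and 1964 and 1965 in TGF-β+2APB, with FDR values of 0.856, 0.382 and 0.382. These are mRNA levels, and kinase activity was not measured. Among all 14 genes of eIF2, eIF2B and their regulators, 4 were called under TGF-β, all higher, with Eif2b3 at 0.83, Eif2b2 at 0.46 and Eif2s1 at 0.33. Against DMSO, TGF-β+2APB had 6 called, with the same genes at 1.12, 0.67 and 0.56 and Ppp1r15b lower by 0.33. Both counts lie below the shares of all tested genes called, 41.5% and 52.8%.

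Of 23 further ATF4 targets and partners, 21 passed the minimum for testing. In TGF-β against DMSO 10 were called, 4 higher and 6 lower, beside 41.5% of all tested genes. Gadd45a, a growth arrest gene, was higher by 1.49 (SE 0.12) and Mthfd1l by 0.83 (SE 0.12). Herpud1, a gene of ER-associated degradation, fell by 2.19 (SE 0.18), Atf3, a stress-induced repressor, stood at -2.16 (SE 0.31), and Cbs, which makes cystathionine, at -1.30 (SE 0.19). With 2APB, 13 were called against DMSO, 6 higher and 7 lower, beside 52.8% of all tested genes, with Gadd45a at 3.27, Vegfa at 0.75 and Eif4ebp1 at 0.65, and Herpud1, Cbs and Atf3 at -2.80, -1.85 and -1.53. In all, 6 were called between the treated groups, beside 17.5% of all tested genes. Gadd45a, Vegfa and Sqstm1 were higher with 2APB, at 1.78, 0.83 and 0.49, and Shmt1 and Pck2 were lower, at -0.99 and -0.95.

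Of the 9 amino acid transporter genes under ATF4 control, 6 were called under TGF-β, 4 higher and 2 lower, beside 41.5% of all tested genes. Slc1a4 (0.95, SE 0.10), Slc38a2 (0.93, SE 0.09) and Slc7a1 (0.84, SE 0.07), carriers of neutral and, for Slc7a1, basic amino acids, were the largest rises. Slc7a11, the cystine carrier, fell by 1.98 (SE 0.52), and Slc1a5 fell by 0.44 (SE 0.11). With 2APB, 7 were called against DMSO, beside 52.8% of all tested genes, with the glycine carrier Slc6a9 at 1.63, Slc38a2 at 1.43 and Slc1a4 at 0.99 as the highest and Slc7a3 at -1.19 as the lowest. Between the treated groups 4 of the 9 were called, beside 17.5% of all tested genes. Slc6a9 (1.01) and Slc38a2 (0.50) were higher in TGF-β+2APB than in TGF-β, while Slc7a3 (-1.04) and Slc7a1 (-0.45) were lower.

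Genes of the other arms of the ER stress response, 14 chaperones and XBP1 or ATF6 targets, had 7 called in each comparison with DMSO, 5 higher and 2 lower under TGF-β, and 3 higher and 4 lower with 2APB, near the 41.5% and 52.8% of all tested genes called. Manf (0.61, SE 0.09), Hyou1 (0.60, SE 0.09) and Pdia4 (0.36, SE 0.09) were higher under TGF-β, and Xbp1 (-0.56, SE 0.09) and Dnajb9 (-0.33, SE 0.08) were lower. With 2APB, Hyou1 stood at 0.89, and Sdf2l1 at -1.21 was the lowest. Between the treated groups 2 were called, beside 17.5% of all tested genes. These were Sdf2l1 at -0.87 and Calr at -0.45, both lower with 2APB.

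Set by promoter motif, the 11 genes with a CARE match had 7 called under TGF-β, 6 higher and 1 lower, and 10 called in TGF-β+2APB against DMSO, 9 higher and 1 lower, where 41.5% and 52.8% of all tested genes were called. The gene lower in both was Vldlr. Their medians were 0.40 and 0.62. The 17 genes with a promoter but no match had 9 called under TGF-β, 5 higher and 4 lower, and 11 called in TGF-β+2APB against DMSO, 8 higher and 3 lower, with medians of 0.13 and 0.16. Between the treated groups each set had 4 called, all of them higher in the genes with a match and 3 of 4 higher in those without, at medians of 0.19 and 0.00. Of all tested genes, 17.5% were called in that comparison, 6.58% higher and 10.9% lower. Ddit3, Sesn2, Atf5 and Psat1, which fell under TGF-β, were all among those without a match in these windows. The difference between the sets was not tested.

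Levels between genes were compared as normalized counts per kb of annotated exon. In DMSO, the factors and effectors ran from 110.5 per kb for Chac1 to 3459 for Atf4, the enzymes from 72.6 for Pycr1 to 5772 for Phgdh, and the synthetases from 371 for Yars to 3707 for Wars. Wars thus had the highest level per kb of the 17 synthetase genes in DMSO, and in TGF-β+2APB it had 1544, where Gars had 5249. Psat1 had 4465 per kb in DMSO and 508 in TGF-β+2APB, while Phgdh had 6469 in TGF-β+2APB. Ddit4 rose from 2494 to 8504 per kb and Nupr1 from 324 to 4062 per kb between these groups. These levels depend on the annotated transcripts and were not tested.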

How the data were processed

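RNA of NMuMG cells in 3 groups of 2 libraries was sequenced as single-end reads of 50 bases after oligo-dT selection. The authors aligned the reads with TopHat2 2.0.13, after FastQC 0.11.2, and deposited raw counts per gene from featureCounts, not normalized. The submitters' notes also name DESeq2 1.6.1 and the build mm10, while the study's methods name hg19. The symbols are mouse symbols. Annotation, strand setting and treatment of reads with several alignments are not given in the sources used here. All values were even numbers.

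These counts went into edgeR 4.0.16 (with limma 3.58.1, under R 4.3.3): TMM scaling, a mean of at least 20 normalized counts, 1 quasi-likelihood model of the 3 groups without covariates, the quasi-likelihood F-test for each pair of groups, and Benjamini-Hochberg adjustment over 13353 of 18512 entries. Genes with an FDR of 0.05 or less were called, the study's thresholds. An SE was obtained by dividing a log2 fold change by the root of its F statistic. The procedure was tested on simulated counts for TGF-β against DMSO. It recovered 129 of 200 changed genes (64.5%) and called 17 of 13030 unchanged genes. Tables and the motif search were made in Python 3.11.15 with pandas 2.3.3, figures with matplotlib 3.10.9. Promoters came from RefSeq (GRCm38.p6), and gene positions and exonic lengths from GENCODE M21.

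The 35 genes and the other lists were chosen with earlier results of these data known. Named are all 35, the 4 eIF2α kinases and Ppp1r15a, and up to 3 rises and 3 falls per further list and comparison. Results of a few genes this rule would name are not reported here. Alternatives were DESeq2 1.42.0 with and without its fold change prior, RLE or library size scaling, no filter, at least 10 counts in every library, halved counts with a minimum of 10, the replicate number as a block, a fit of the 4 libraries compared alone, a threshold of 0.01 on the FDR, a minimum size of 1 for the log2 fold change, and leaving out each library in turn. A block with exchanged TGF-β+2APB numbers was added after the data had been seen. With a library left out, 1 group holds a single sample, which is assumed to vary like the others. The study's methods call the 2 libraries of a group biological replicates. No source used here says whether they came from separate cultures, and the tests measure the spread between these samples.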

Additional observations from a re-analysis of the deposited data

How the results depend on the processing

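Counts of called genes in the order TGF-β against DMSO, TGF-β+2APB against DMSO and TGF-β+2APB against TGF-β were 11, 14 and 8 of 18 response genes and 8, 10 and 0 of 17 synthetase genes. With a minimum size of 1 for the log2 change they were 3, 7 and 2 response genes and 0, 1 and 0 synthetase genes. At an FDR of 0.01, 5 synthetase genes were called under TGF-β and 2 response genes between the treated groups. DESeq2, with and without the prior, called 13 synthetase genes under TGF-β and 1 between the treated groups. Between the treated groups, 5 response genes were called without the filter and 2 in a fit of only the 4 libraries compared. Leaving out single libraries gave 6 to 15, 10 to 16 and 2 to 11 response genes and 3 to 14, 4 to 13 and 0 to 7 synthetase genes. The share of all tested genes called under each alternative is not given here. Whether these shifts are particular to these genes was therefore not examined, and their cause was not tested. Apart from the replicate block described next, the other alternatives kept each count within 1.5 times its value. The motif was held by 8 genes in the narrower form, against 11.

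Whether the replicate numbers pair the samples was not settled. Deviations of same-numbered libraries from their group means correlated across 13353 genes at 0.15 (DMSO and TGF-β), -0.46 (DMSO and TGF-β+2APB) and -0.26 (TGF-β and TGF-β+2APB). Genes are not independent replicates, so these values do not show how the samples were handled. With the replicate block 10, 13 and 4 response genes and 8, 9 and 0 synthetase genes were called. The block ended the calls of Mthfd2 in TGF-β against DMSO, of Atf4 and Eprs in TGF-β+2APB against DMSO, and of Atf5, Asns, Aldh18a1 and Pycr1 between the treated groups. With the TGF-β+2APB numbers exchanged in the block, an alternative chosen after seeing the data, they were 11, 13 and 9, and 8, 10 and 0.

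Of 630 gene values per comparison under the alternatives, 554, 550 and 543 kept direction and side of the threshold. Signs turned in 27 values of 17 genes, none of them called (FDR 0.124 or higher). With single libraries left out, the log2 changes of genes whose sign turned ran from -0.018 to 0.27 for Aldh18a1, -0.092 to 0.25 for Eprs and -0.069 to 0.16 for Qars in TGF-β against DMSO. They ran from -0.056 to 0.24 for Mthfd2 and -0.0033 to 0.049 for Qars in TGF-β+2APB against DMSO. They ran from -0.065 to 0.042 for Atf4, -0.18 to 0.37 for Cebpg, -0.25 to 0.081 for Phgdh, -0.12 to 0.040 for Psph, -0.023 to 0.29 for Shmt2, -0.043 to 0.16 for Aars, -0.23 to 0.011 for Gars, -0.085 to 0.034 for Hars, -0.035 to 0.25 for Kars, -0.064 to 0.034 for Lars, -0.14 to 0.100 for Qars, -0.037 to 0.29 for Sars and -0.26 to 0.0020 for Vars between the treated groups. Library size scaling gave -0.037 for Iars and -0.041 for Qars in TGF-β+2APB against DMSO and -0.033 for Atf4 between the treated groups, where Lars was at 0.0028 under RLE scaling and DESeq2 with or without the prior. All 35 genes passed the count minimum, and the precision is that of 2 libraries per group.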
